A study of Mus musculus with 18 samples.

Results

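The liver transcripts described here are 10 core targets of the transcription factor NRF2, which drives the antioxidant response: Osgin1, Srxn1, Hmox1, Cbr3, Gclc, Gclm, Txnrd1, Nqo1, Gsr and Blvrb. They were chosen by name, as every probe set to which the array's annotation gives 1 of these symbols and no other. The 10 genes are among 18194 genes with such a probe set, and they have 18 probe sets. All 18 passed the filter on low values, a mean log2 value above 4.69, although 1 of them, Txnrd1 1424487_x_at, averaged 4.72 and passed only through the 1% quercetin arrays, with 4.60 over the 12 others. The genes were picked with earlier results of these data known, as was the array of 1% quercetin replicate 1, which is given separately below, so counts over the 10 genes describe them and carry no test of the list.

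The samples were livers of male C57BL/6J mice, spelled C56BL/6J in the strain label. Diets began at 5 weeks of age and lasted 20 weeks. The control group ate AIN-93G, a purified rodent diet, and the other groups ate the same diet with 0.05% or 1% quercetin, a flavonol of fruits and vegetables. The labels give 12 mice per diet in cages of 3, and arrays from 6 mice per diet, each of them hybridised with RNA of 1 mouse, without naming the cage. All groups shared a dark period that fell in the daytime and an earlier period on an unpurified diet. With 1 mouse per array, p-values measure the spread between these mice. The tests treat the mice as independent. Mice of a diet that shared a cage cannot be identified, and an effect of cage was not tested. Whole liver was used, so fewer cells of a type and less RNA per cell cannot be told apart.

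NRF2 is normally held by KEAP1 and handed to the CUL3 ubiquitin ligase for degradation. Electrophiles and oxidants modify KEAP1, and NRF2 then accumulates, pairs with a small MAF protein and binds antioxidant response elements in its target genes. In liver these targets make and recycle glutathione, reduce thioredoxin and peroxiredoxins, degrade heme and reduce quinones and carbonyls. BACH1 occupies the same elements as a repressor, chiefly at Hmox1.

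Promoter sequence is shown for 4 members because the results below turn on how unlike they were: Srxn1 with the widest excursion on a single array, Osgin1 with the largest difference between diets, Gclm as a gene that varied with its partner Gclc, and Nqo1 as the member that was not raised on that array. The sequences are from RefSeq on GRCm38.p6. Those of Srxn1, Osgin1 and Nqo1 end at the base before the annotated start used there, which for Osgin1 is a start inside the annotated gene. The start used for Gclm also lies inside the annotated gene, and its sequence ends earlier, at the base before the gene begins. The sequence of Gclm begins 180 bases and the others begin 250 bases before the point where they end. Capitals mark matches on either strand to the antioxidant response element core TGACNNNGC, to its variant TGAGNNNGC or to the AP-1 site TGANTCA, which can overlap.
Srxn1 chr2:152105274-152105523 (+ strand): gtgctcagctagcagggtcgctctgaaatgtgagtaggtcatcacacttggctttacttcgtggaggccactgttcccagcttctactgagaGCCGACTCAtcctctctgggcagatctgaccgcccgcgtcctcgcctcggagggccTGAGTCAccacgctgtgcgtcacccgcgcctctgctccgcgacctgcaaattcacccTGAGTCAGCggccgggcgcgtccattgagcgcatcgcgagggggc
Osgin1 chr8:119436897-119437146 (+ strand): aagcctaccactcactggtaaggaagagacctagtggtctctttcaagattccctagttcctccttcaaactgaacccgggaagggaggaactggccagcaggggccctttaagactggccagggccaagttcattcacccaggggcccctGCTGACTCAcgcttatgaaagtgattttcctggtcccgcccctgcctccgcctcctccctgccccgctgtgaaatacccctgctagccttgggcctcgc
Gclm chr3:122245307-122245486 (+ strand): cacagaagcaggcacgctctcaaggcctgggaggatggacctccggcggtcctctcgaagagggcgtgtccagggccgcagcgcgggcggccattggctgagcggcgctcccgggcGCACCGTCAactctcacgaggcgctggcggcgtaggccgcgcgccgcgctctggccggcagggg
Nqo1 chr8:107403206-107403455 (- strand): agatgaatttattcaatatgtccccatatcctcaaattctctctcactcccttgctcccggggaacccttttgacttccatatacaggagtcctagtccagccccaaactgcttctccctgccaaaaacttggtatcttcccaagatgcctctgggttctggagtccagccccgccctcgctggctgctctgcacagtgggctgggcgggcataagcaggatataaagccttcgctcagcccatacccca

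RefSeq windows of 250 bases before to 50 after a start were at hand for 7 of the 10 genes, as 10 windows, and not for Hmox1, Gclc or Gsr. Srxn1 held an AP-1 match that starts at -102 and another at -45, where TGAGTCAGC is at once an AP-1 match and the variant core. Osgin1 held the same 9 letters on the opposite strand, starting at -99 as GCTGACTCA. Srxn1 had a further variant core at -158 and a core at 29 after the start, Gclm a core at -134, 1 of 3 Txnrd1 windows a core at -92 and 1 of 2 Blvrb windows a variant core at -69. Positions count from the start on which each window was built, which for Gclm is not the end of the sequence printed above. Cbr3, Nqo1 and the other windows held no match, which says only that these letters are not in this stretch. A core or its variant was present in 5 of the 10 windows, against 27.8% of 32851 mouse windows of that length, an AP-1 match in 2 against 7.81%, and a core that overlaps an AP-1 match in 2 against 0.822%. The core alone was in 12.4% of all windows and the variant in 17.6%. The variant was added after the first results of this search were seen. Both overlaps rest on it, and the Osgin1 and Blvrb windows are in the first count only through it. The counts therefore describe these windows and carry no test.

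The arrays were of similar quality but not on a common scale. Array medians of intensity ranged from 14.2 to 21.9, and the array of 1% quercetin replicate 1 had the lowest, 14.2. Its median correlation with the other arrays was 0.966, against 0.974 to 0.979 for the other 17. Its log2 ratio of 3-prime to 5-prime control probe sets was -0.11 for Gapdh, within the range of the others (-0.32 to 0.07), and 1.32 for beta-actin, also within it (0.99 to 1.34). The 7 measured hepatocyte markers (Alb and Apoa1 among them) averaged a log2 value of 12.85 on that array, the lowest of 18, against 13.01 to 13.41 on the others, and the list's lowest-reading gene, Tat, reached an intensity of 5765. Among the 18 arrays the beta-actin ratio was highest in 1% quercetin replicates 3 (1.34, rank 1), 4 (1.34, rank 2) and 1 (1.32, rank 3). Replicates 2, 6 and 5 of that diet were in ranks 8, 10 and 16. The part of this ratio in the members' levels was not tested. All log2 values below are log2 of the deposited intensity plus 16, changes are differences of group means ± SE, and group values are mean ± SD.

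At 1% quercetin the clearest difference from the control diet among the members was in Osgin1, which measured 9.88 ± 0.32 (log2, n = 6) in controls and 11.04 ± 0.62 (n = 6) at 1%, 1.16 ± 0.26 apart. Srxn1, Hmox1 and Cbr3 had the next largest differences in group means, and each of these rested mostly on 1 of the 6 mice. The 10 genes were all higher in mean at 1%, from 0.03 for Nqo1 to 1.16 for Osgin1, with a median log2 change of 0.36 against -0.05 over all 27022 probe sets tested. Of all these probe sets 36.3% were higher. Without 1% quercetin replicate 1 the median of the 10 genes was 0.12, against -0.02 over all, and 9 of the 10 were higher, against 44.9% of all probe sets.

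No member passed the test of 1% against control. The limma fit to the 3 diets, with Benjamini-Hochberg adjustment over all 27022 probe sets and a two-sided threshold of 0.05, called 0 of the 18 member probe sets and 0.0037% of all probe sets. The single probe set it called was of Cfap298, named here after its value was seen, and it lost its call without 1% quercetin replicate 1 (limma adjusted p = 0.106). At an unadjusted p under 0.05, 3 of the 18 member probe sets were higher (Osgin1, Srxn1 1419942_at and Txnrd1 1424487_x_at), against 1.2% of all probe sets, and 0 were lower. The last of these is the probe set that passed the filter through the 1% arrays, so the count describes these values and supports nothing. Over all probe sets 324 were higher and 1041 lower at that level, so 23.7% were higher, a share that became 44.9% after a median shift per array and 50.4% after quantile normalization. Without 1% quercetin replicate 1 limma called 0 of the 18 and 0% of all, while 2 of the 18 were higher at an unadjusted p under 0.05 (Osgin1 and Txnrd1 1424487_x_at), against 1.25% of all. Over these 17 arrays that Txnrd1 probe set averaged 4.67, below the filter, which leaves Osgin1 as the 1 probe set of the count above it.

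**Figure D1:**
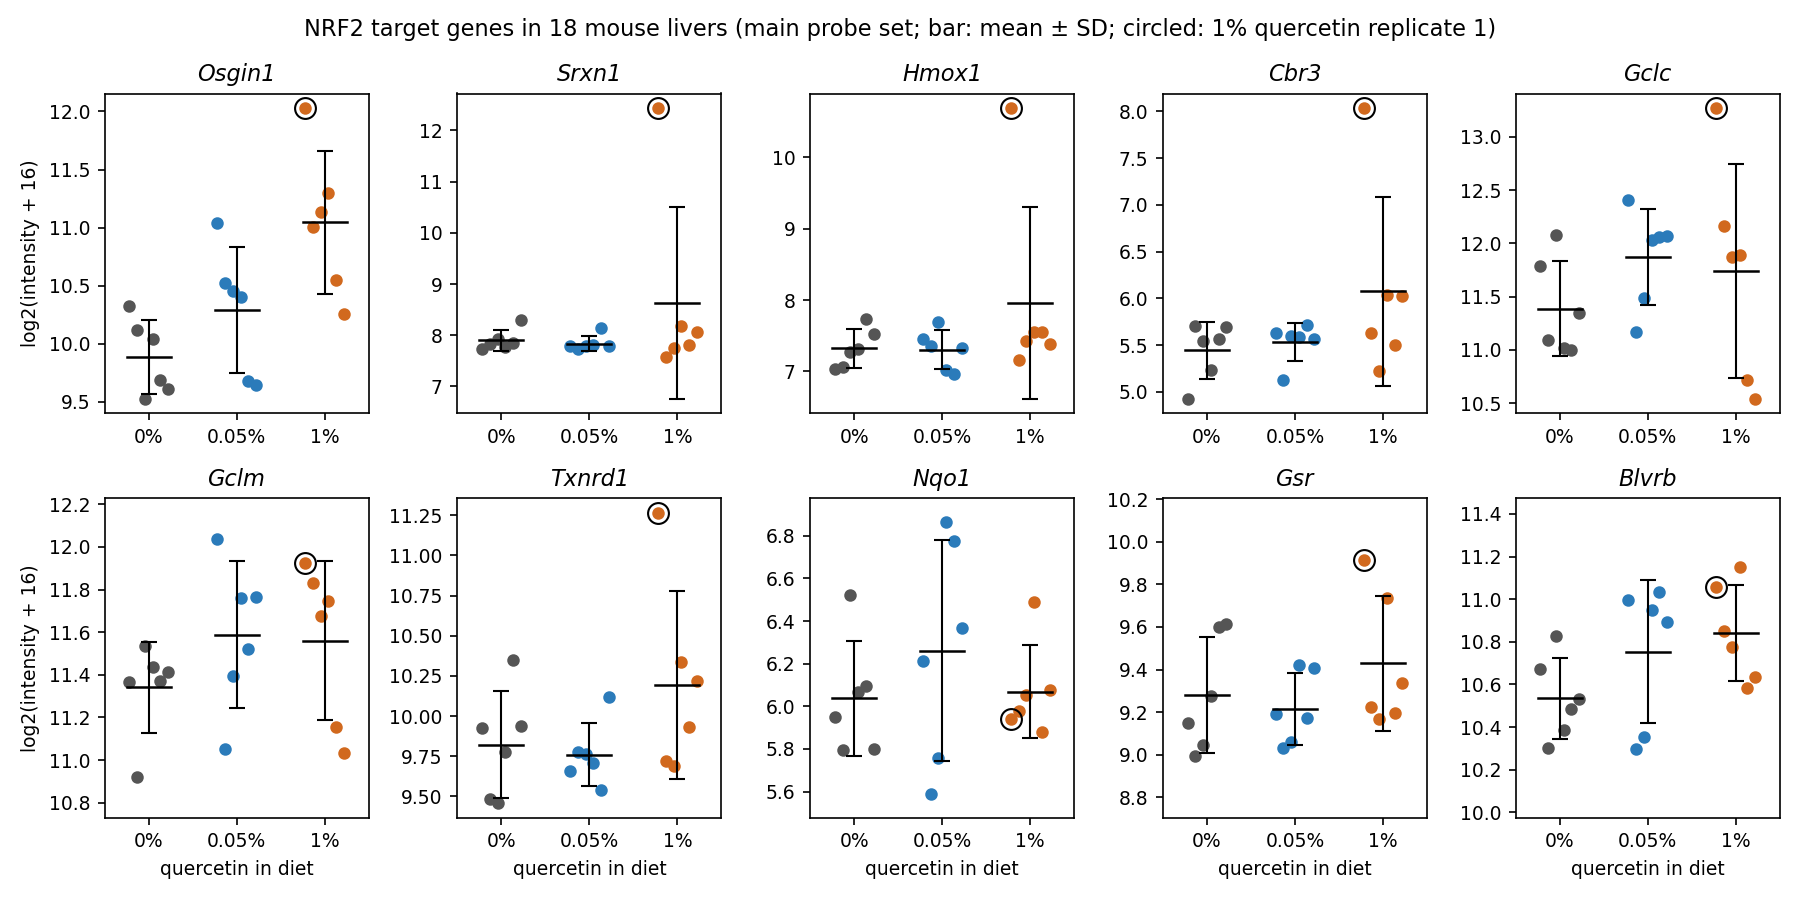
Log2 intensity (plus 16) of the 10 NRF2 target genes on each of 18 arrays, by percentage of quercetin in the diet, with 1 point per mouse, a bar at the mean and whiskers of 1 SD (n = 6 per diet). The circled array, 1% quercetin replicate 1, is the highest point for 7 of the 10 genes, and 4 of the other 5 mice at 1% lie above every control for Osgin1 and 3 of 5 for Gclm. Vertical axes differ between panels and do not start at 0.

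Osgin1 encodes an oxidative stress-induced growth inhibitor. Its 1 probe set had intensities of 720.4, 921 and 1268 (lowest, median and highest) in the 6 controls, 782, 1362 and 2086 at 0.05% quercetin, and 1205, 2135 and 4165 at 1%. The means followed the dose, but the groups overlapped: 5 of 6 mice at 1% lay above every control, 6 of 6 above the control mean, and 4 of 6 mice at 0.05% above every control. For 1% against control the log2 change was 1.16 ± 0.26 (95% interval 0.63 to 1.69), the ninth smallest p of 27022 probe sets (rank 9), with a limma adjusted p of 0.412. Without 1% quercetin replicate 1, the highest of the 18 arrays for this gene, the change was 0.96 ± 0.24 (0.48 to 1.45), still rank 16, with a limma adjusted p of 0.771. The same gene had a change of 0.41 ± 0.26 for 0.05% against control (limma adjusted p = 1.00) and of 0.76 ± 0.26 for 1% against 0.05% (limma adjusted p = 0.508). Comparisons that share a group are not independent of each other.

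Gclc and Gclm encode the catalytic and the modifier subunit of glutamate-cysteine ligase, the rate-limiting enzyme of glutathione synthesis. Gclc probe set 1424296_at had intensities of 2025, 2379.9 and 4309 (lowest, median and highest) in controls, 2289, 4222 and 5415 at 0.05%, and 1474, 3754 and 9873 at 1%. The 1% group was the widest, since it held both the highest array of the 18 and, in replicates 5 and 6, the lowest 2. The log2 change for 1% against control was 0.36 ± 0.33 and became 0.05 ± 0.29 without replicate 1. At 0.05% the mean of Gclc was higher than in controls by 0.48 ± 0.33, above the control mean in 5 of 6 mice, and 4 of those 6 mice lay between 4177 and 5415. Probe set 1455959_s_at of Gclc gave 0.32 ± 0.33 for 1% and 0.29 ± 0.33 for 0.05% against control, also without a call in either limma test (adjusted p = 0.984 and 1.00).

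Gclm varied less. Its probe set 1418627_at had intensities of 1925, 2672 and 2952 in controls, 2111, 3192 and 4184 at 0.05%, and 2077, 3341 and 3867 at 1%, again as lowest, median and highest. The 1% mice comprised 4 that lay above every control (3258 to 3867) and replicates 5 and 6, at 2264 and 2077, which also gave the lowest Gclc, Osgin1 and Blvrb values of the 1% group. The log2 change was 0.22 ± 0.18 for 1% and 0.25 ± 0.18 for 0.05% against control, and 0.15 ± 0.18 for 1% without replicate 1. The probe set 1439050_at gave 0.24 ± 0.16 and 0.14 ± 0.16, with no call in either comparison.

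Gsr encodes glutathione reductase, which regenerates reduced glutathione with NADPH. Probe set 1421817_at had intensities of 493, 577 and 767 in controls, 508, 565 and 671 at 0.05%, and 559, 606 and 950.3 at 1%. The groups overlapped throughout, and the log2 change was 0.15 ± 0.15 for 1% and -0.06 ± 0.15 for 0.05% against control. Probe set 1421816_at did not follow it, with -0.03 ± 0.15 and -0.09 ± 0.15, and the first of these became 0.02 after a median shift and 0.03 after quantile normalization.

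Txnrd1 encodes cytosolic thioredoxin reductase, which keeps thioredoxin reduced. Its probe set with the highest mean, 1421529_a_at, had intensities of 687, 909 and 1289 in controls, 727, 837 and 1096 at 0.05%, and 809, 1066 and 2447 at 1%. Only 1 mouse at 1%, replicate 1, lay above every control. The log2 change for 1% against control was 0.37 ± 0.21 (limma adjusted p = 0.984), or 0.16 ± 0.17 without that mouse, and the change for 0.05% was -0.06 ± 0.21. The other probe sets had low intensities: 1424486_a_at, with values of 11.2 to 57.8 over the 18 arrays, gave 0.04 ± 0.18 for 1% against control, and 1424487_x_at, with 0.269 to 30.6, gave 0.48 ± 0.18. The latter, which passed the filter only through the 1% arrays, had a change of 0.36 ± 0.17 without replicate 1, and the 3 probe sets of the gene did not give the same picture.

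Srxn1 encodes sulfiredoxin, which restores overoxidised peroxiredoxins. Probe set 1426875_s_at had intensities of 196, 214 and 297 in controls, 196, 204 and 266 at 0.05%, and 176, 230.4 and 5532 at 1%. The other 5 mice at 1% lay between 176 and 272, inside or below the range of the controls. The log2 change for 1% against control was 0.73 ± 0.52 with all arrays and -0.03 ± 0.14 without replicate 1. Probe sets 1451680_at and 1425351_at gave 0.58 ± 0.48 and 0.71 ± 0.46 with all arrays, and -0.11 ± 0.14 and 0.05 ± 0.16 without it. The last, 1419942_at, gave 0.48 ± 0.22 and 0.26 ± 0.17. For 0.05% against control the 4 changes lay between -0.08 and 0.19.

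Hmox1 encodes heme oxygenase-1, which opens heme to biliverdin, iron and carbon monoxide, and Blvrb encodes biliverdin reductase B, which reduces biliverdin and flavins. Hmox1 had intensities of 115, 141 and 197 in controls, 109, 146 and 191 at 0.05%, and 127, 164 and 1636 at 1%. Apart from replicate 1, the 1% mice lay between 127 and 172, within the range of the controls. The log2 change for 1% against control was 0.64 ± 0.39, or 0.09 ± 0.15 without that mouse, and -0.02 ± 0.39 for 0.05%.

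Blvrb behaved differently, with a small shift that was spread over the mice. It had intensities of 1245, 1441 and 1800.05 in controls, 1243, 1922 and 2081 at 0.05%, and 1517, 1782 and 2257 at 1%. At 1% all 6 mice lay above the control mean and 3 above every control. The log2 change was 0.31 ± 0.15 for 1% against control (limma adjusted p = 0.981), 0.26 ± 0.16 without replicate 1 and 0.22 ± 0.15 for 0.05%.

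Nqo1 and Cbr3 encode a quinone reductase and a carbonyl reductase. Nqo1, a standard readout of NRF2 activity, had intensities of 39.5, 48.4 and 76.0 in controls, 32.2, 62.4 and 100.5 at 0.05%, and 42.8, 48.7 and 73.9 at 1%. Its log2 change was 0.03 ± 0.19 for 1% against control, with a 95% interval of -0.37 to 0.43, and 0.22 ± 0.19 for 0.05%. The 0.05% group held the highest arrays, replicates 4 and 5 at 100.5 and 93.4, and also the lowest. Cbr3 had intensities of 14.4, 31.0 and 36.2 in controls, 18.8, 32.2 and 36.3 at 0.05%, and 21.4, 41.1 and 246 at 1%. Its log2 change for 1% was 0.63 ± 0.31 (limma adjusted p = 0.981), or 0.24 ± 0.17 without replicate 1, where 2 of the other 5 mice still lay above every control.

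**Figure D2:**
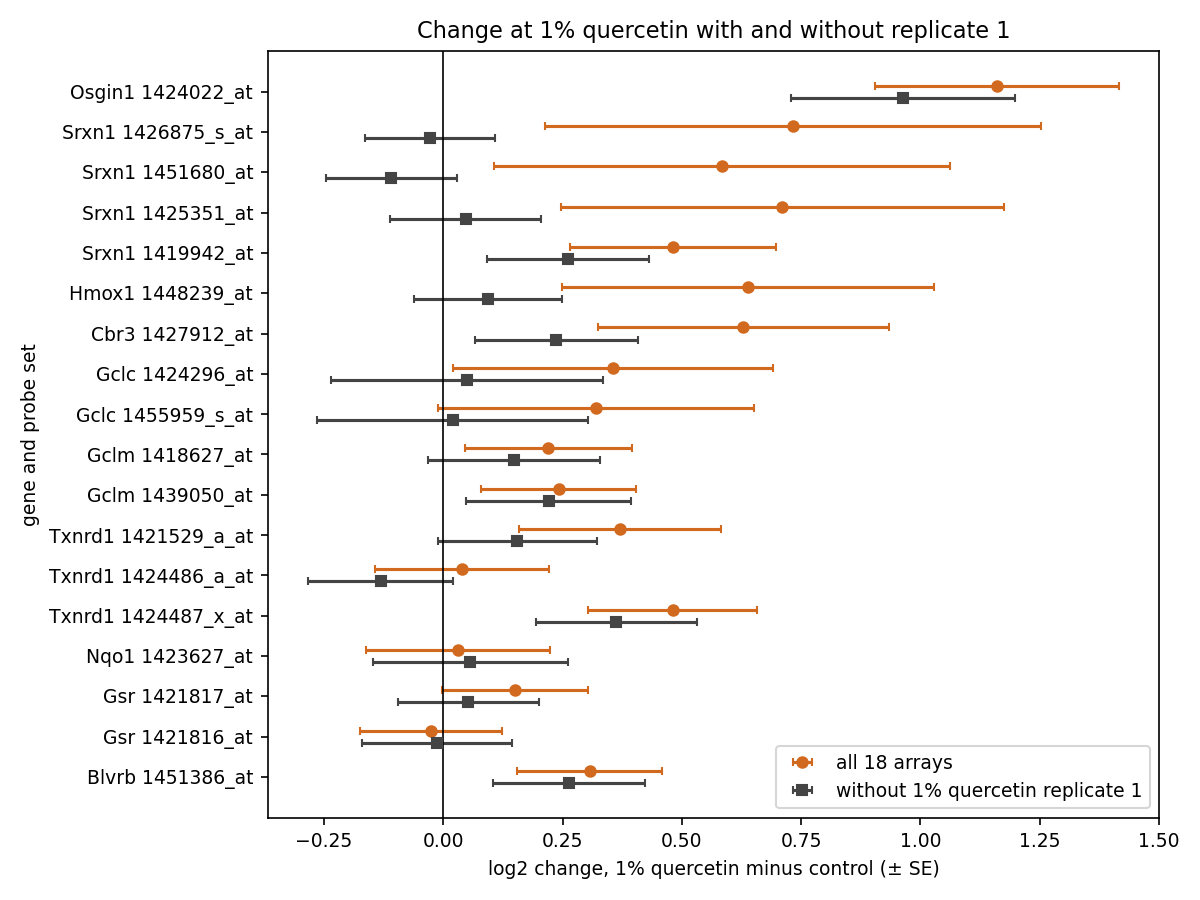
Log2 change of the 18 member probe sets for 1% quercetin against control, with whiskers of 1 SE, from all 18 arrays (circles) and without 1% quercetin replicate 1 (squares). Srxn1 1426875_s_at moves from 0.73 to -0.03 and Hmox1 from 0.64 to 0.09, while Osgin1 stays at 0.96 and Blvrb at 0.26.

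On the array of 1% quercetin replicate 1, Srxn1, Hmox1 and Cbr3 stood far above all other mice. Srxn1 1426875_s_at had an intensity of 5532 there, 26.6 times the median of the other 17 arrays (208), and the next highest array had 297. The gap to that next array, 4.15 on the log2 scale, was the largest of all 27022 probe sets, and the gaps of 1451680_at (3.80, 20.1 times the median) and 1425351_at (3.55, 23.8 times) were ranks 2 and 3. The remaining Srxn1 probe set, 1419942_at, stood out less, at 3.67 times the median (99.7 against 27.1), with a gap of 0.95 and rank 67. Hmox1 was 11.1 times the median of the other 17 (1636 against 148), with a gap of 2.96 and rank 5. Cbr3 was 7.69 times that median (246 against 32.0), with a gap of 2.0 and rank 10.

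The remaining members were raised on that array by less or not at all. Osgin1 was 3.28 times the median of the other 17, the 2 Gclc probe sets 2.81 and 3.10 times, the 3 Txnrd1 probe sets 2.72 to 3.02 times, and Gsr 1421817_at 1.67 times, each the highest of the 18 arrays. Gclm 1418627_at (1.41 times) and Blvrb (1.31 times) were the second highest there, in rank 2, behind mice at 0.05% and 1%. Gclm 1439050_at (1.14 times), Gsr 1421816_at (0.973 times) and Nqo1 (0.888 times, rank 13 of 18) lay among the other mice.

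In all, 13 of the 18 member probe sets had their highest value on that array, against 3.36% of all probe sets. For 6 of the 18 the gap exceeded 1 on the log2 scale, against 0.229% of all, or 62 probe sets. Some of these are probe sets of the same gene. Counted by gene, each by its probe set with the highest mean, 7 of 10 were highest there and 3 of 10 had such a gap. The array was picked with earlier results of these genes known, so these counts describe it and carry no test. No other array was the highest for more than 2 member probe sets, and 0 member probe sets had a gap over 1 on any other array. Across all probe sets the other arrays had 0 to 4 gaps of that size each. After a median shift the counts were 16 and 10 of 18 (11.7% and 0.47% of all), and after quantile normalization 16 and 10 (11.5% and 0.459%).

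**Figure D3:**
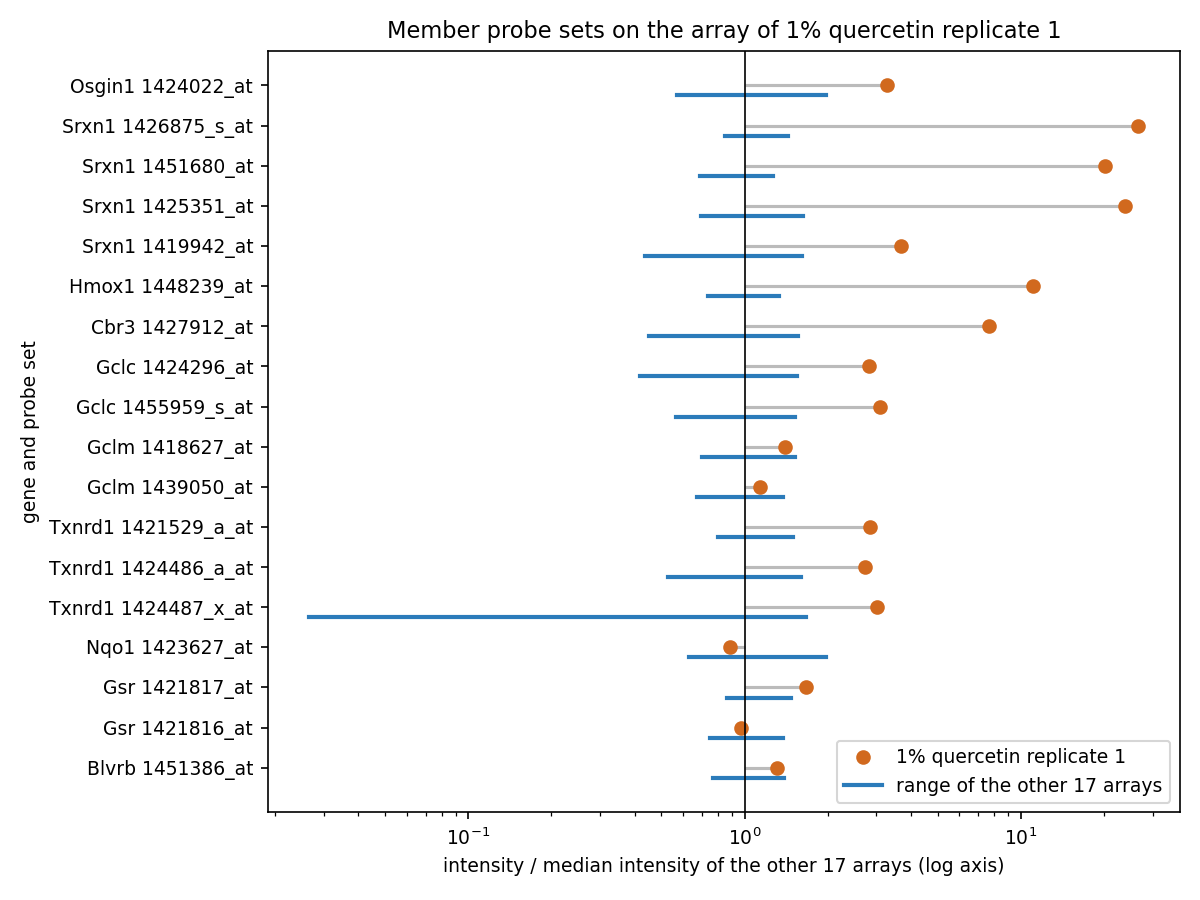
Intensity on the array of 1% quercetin replicate 1 divided by the median of the other 17 arrays (points, log axis), with the range of those 17 arrays on the same scale (bars), for the 18 member probe sets. 3 Srxn1 probe sets reach 20.1 to 26.6, Hmox1 11.1 and Cbr3 7.69, while Nqo1, at 0.888, lies inside its bar.

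**Figure D4:**
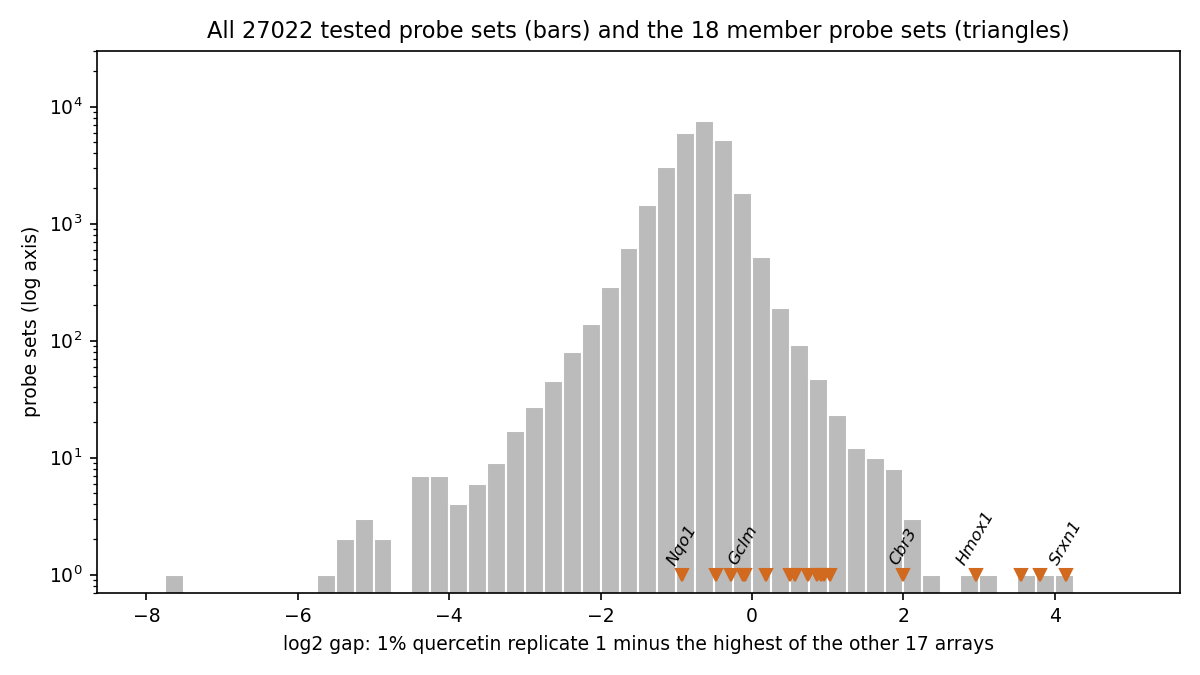
Number of probe sets (log axis) by the log2 gap between 1% quercetin replicate 1 and the highest of the other 17 arrays, for all 27022 tested probe sets, with triangles at the 18 member probe sets. The median probe set has a gap of -0.69, and 3 Srxn1 probe sets, up to 4.15, and Hmox1, at 2.96, lie at the far right.

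The 8 genes outside the 10 with the largest gaps on that array were Sprr1a (25.9 times the median of the other 17), Tnfrsf12a (13.1), Fosl1 (14.2), Ugt2b37 (11.3), Bcl2l11 (6.41), Spred1 (6.80), Dusp5 (28.3) and Plet1 (7.14). Fosl1 encodes a subunit of AP-1, Tnfrsf12a the receptor of TWEAK, and Dusp5 a phosphatase and Spred1 an inhibitor of ERK signalling. Dusp5 and Fosl1 had low medians on the other arrays, 5.84 and 8.64.

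Of 7 lists of markers of other liver cells, by mean log2 value of the tested genes, that of cholangiocytes was in rank 2 of 18 on that array. Neutrophils were in rank 7, erythroid cells in rank 14, and Kupffer, endothelial, stellate and lymphoid cells in ranks 16 to 18. These values were not scaled between arrays, and this array had the lowest median intensity. Its summed intensity of 11 Kupffer cell and macrophage markers was 5207, against 5181 to 11124 in controls, 6346 to 7866 at 0.05% and 4955 to 8967 over the 1% group. Stellate cell and fibroblast markers (8 genes) summed to 2878, the lowest of the 1% group and below the controls (3445 to 5047), endothelial markers (8 genes) to 1758, against 1628 to 2409, and lymphocyte markers (7 genes) to 58.0, against 79.0 to 128. Neutrophil markers (8 genes) summed to 295, against 116 to 1173 in controls, and erythroid markers (4 genes) to 455, against 504 to 676. Some genes of these lists read low. The filter kept 4 of the 7 lymphocyte, 5 of the 8 neutrophil and 2 of the 4 erythroid markers. Cd79a, Camp and Epb42 among them never exceeded intensities of 9.17, 9.77 and 8.16. Cholangiocyte markers (5 genes) summed to 178, the highest of the 1% group, with controls from 114 to 179, and Krt7 among them never exceeded an intensity of 23.8. For comparison the 10 members summed to 30873, against 8036 to 11454 in controls.

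By mean log2 value, 3 lists of other stress genes lay within the range of the other mice on that array. Acute phase genes (12) had a mean log2 value of 10.65 there (rank 9 of 18), integrated stress response genes (10) of 7.15 (rank 10) and heat shock genes (8) of 10.68 (rank 6). 0 genes of these 3 lists had a gap over 1, but only 0.229% of all probe sets did, so that count says little. The array had the highest value for 2 of the 8 heat shock genes, against 3.36% of all probe sets (11.7% after a median shift). The larger gap of these was 0.17, for Hspb1. It was the highest for 0 of the acute phase and 0 of the integrated stress response genes. The part of any of these values in the members' levels was not tested.

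The regulators of NRF2 were also unusual on that array. Of 10 genes, 5 had their highest value there, against 3.36% of all probe sets (11.7% after a median shift): Bach1 (3.10 times the median of the other 17), Maff (2.96), Mafk (2.46), Mafg (2.08) and Sqstm1 (2.06), which are the repressor of the elements, the small MAF partners and the receptor that draws KEAP1 into autophagy. Nfe2l2, the gene of NRF2 itself, was 0.783 times the median and Keap1 1.08 times. For 1% against control limma called 0 of the 10, and at an unadjusted p under 0.05 there were 2 higher (1.2% of all probe sets), Mafk (0.46 ± 0.20) and Maff (0.60 ± 0.26), which gave 0.32 ± 0.19 and 0.43 ± 0.25 without replicate 1. The median log2 change of the 10 was 0.17, and 0.10 without it. For 0.05% against control 0 were called, and Rbx1, a subunit of the CUL3 ligase, had the smallest p (0.47 ± 0.19). For 1% against 0.05% limma called 0, and at an unadjusted p under 0.05 it had 3 higher (1.61% of all), Bach1 (0.76 ± 0.25), Mafk (0.51 ± 0.20) and Maff (0.65 ± 0.26). Without replicate 1 that left 1 (1.68% of all), Bach1 at 0.52 ± 0.21.

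Other known NRF2 targets differed from each other on that array. Of 38 listed genes 31 had a probe set and 30 were tested, and 5 had their highest value on the array of 1% quercetin replicate 1, where 3.36% of all probe sets did (11.7% after a median shift): Pgd (2.24 times the median of the other 17), Slc48a1 (2.03), Ugdh (1.94), Entpd5 (1.69) and Ugt2b35 (1.36). Gstm2, Mgst1, Txn1 and Adh7 had their lowest of 18 values there. This array had the lowest median intensity, and the share of all probe sets that were lowest on it was not counted. Glutathione transferases were mixed, from Gsta4 at 1.38 times to Gstm2 at 0.575 times. For 1% against control the 30 genes divided into 15 higher and 15 lower, with a median log2 change of -0.0050, and limma called 0. Over all tested probe sets 36.3% were higher, with a median of -0.05. The smallest p-values were those of Gsta4 (0.48 ± 0.23), Gstm2 (-0.58 ± 0.30), Abcc4 (0.39 ± 0.21) and Ephx1 (0.30 ± 0.16). Gsta4 was the 1 gene at an unadjusted p under 0.05, where 1.2% of all probe sets were higher. For 0.05% against control 19 were higher and 11 lower, with a median of 0.10 and Gsta2 at 0.77 ± 0.33 as the smallest p, again with 0 called. In that comparison 50.2% of all probe sets were higher, with a median of 0.00087.

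Genes of glutathione, thioredoxin and heme metabolism beside the members were taken as a further list (14 listed, 11 tested, among them Txn1 and Cbr1 of the preceding list). Their median log2 change was -0.06 for 1% against control, with 4 higher, 7 lower, 0 called by limma and 0 at an unadjusted p under 0.05. The median over all probe sets was -0.05, and 36.3% of them were higher. Gss, glutathione synthetase, was the 1 gene of the 11 that was highest on the array of 1% quercetin replicate 1, at 1.58 times the median of the others. That array was the highest for 3.36% of all probe sets. Glrx, glutaredoxin, had the smallest p for 1% against control (-0.27 ± 0.13), followed by Cbr1, the neighbour and paralog of Cbr3 (0.42 ± 0.23).

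Across the mice, the members formed some pairs that kept their correlation without that array and others that did not. Over the 18 arrays Pearson's r was 0.85 for Gclc with Gclm, 0.80 for Gclm with Blvrb, 0.75 for Gclc with Blvrb, 0.71 for Nqo1 with Blvrb and 0.84 for Txnrd1 with Gsr. Without 1% quercetin replicate 1 these were 0.85, 0.77, 0.74, 0.80 and 0.77. In contrast r went from 0.95 to 0.15 for Srxn1 with Hmox1, from 0.89 to 0.19 for Hmox1 with Cbr3, and from 0.54 to -0.33 for Osgin1 with Srxn1. Srxn1 with Cbr3 went from 0.93 to 0.61. Spearman's rho, which uses ranks, changed less: from 0.28 to 0.14 for Srxn1 with Hmox1 and from 0.71 to 0.66 for Srxn1 with Cbr3. Over the 45 pairs the median r was 0.48 with that array and 0.23 without it, and the median rho 0.28 and 0.18. These correlations describe 18 or 17 mice of 3 diets and share the scale of each array.

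**Figure D5:**
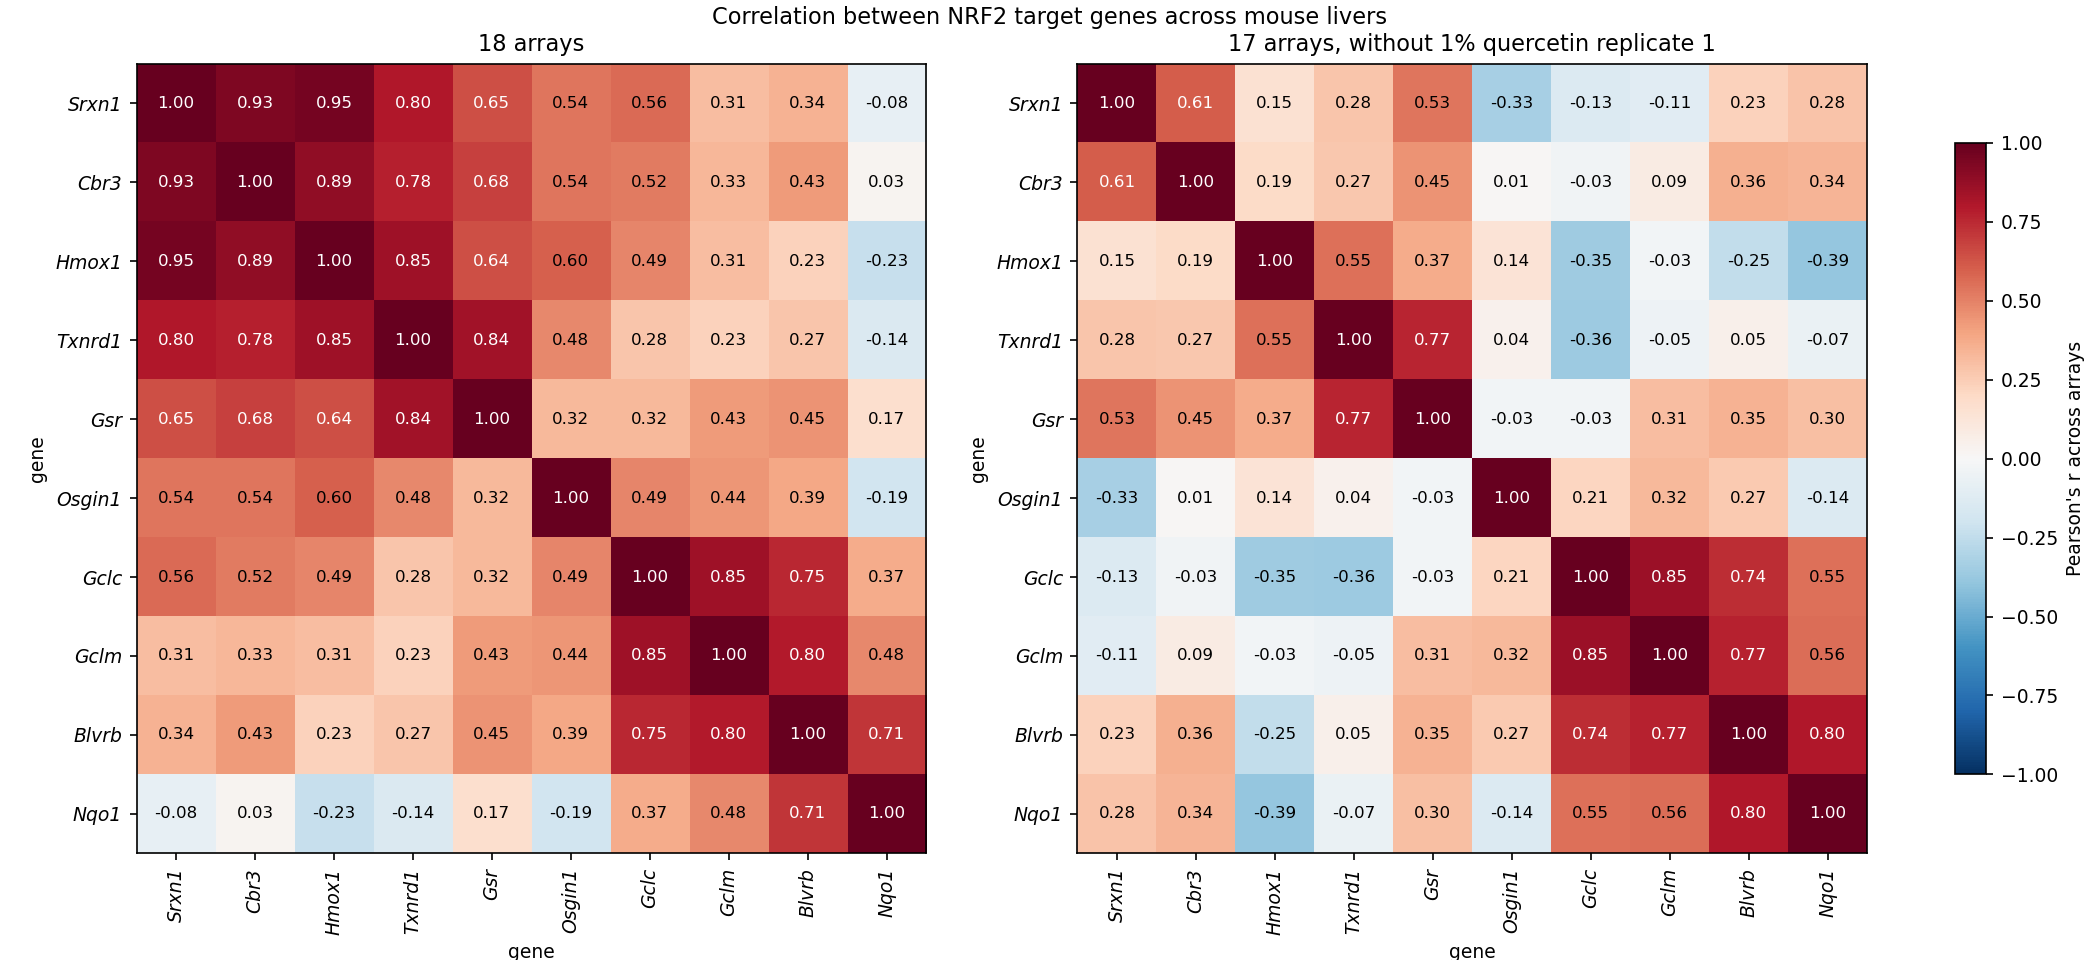
Pearson's r between the 10 genes across 18 mouse livers (left) and across 17 without 1% quercetin replicate 1 (right), each gene by its probe set with the highest mean. Gclc, Gclm and Blvrb have values of 0.75 to 0.85 with each other on the left and 0.74 to 0.85 on the right, while Srxn1 with Hmox1 goes from 0.95 to 0.15.

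The genes outside the 10 whose pattern over the 18 arrays was most like the mean of the members were Lmo4 (Spearman's rho 0.93, and 0.93 over 17 arrays without 1% quercetin replicate 1), Kansl2 (0.92 and 0.90), Slc25a20 (0.90 and 0.94), Ppp2r2a (0.90 and 0.90), Slc40a1 (0.90 and 0.89), Taf1a (0.90 and 0.88), Aldoa (0.89 and 0.88) and Map1lc3a (0.89 and 0.91). They are the 8 highest of 12875 genes compared, by a ranking that gives no test.

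No member passed the test of 0.05% quercetin against the control diet. The 10 genes had a median log2 change of 0.15, against 0.00087 over all probe sets, with 6 higher and 4 lower, where 50.2% of all probe sets were higher. Gclc (0.48 ± 0.33) and Osgin1 (0.41 ± 0.26) had the largest values, Gclm, Nqo1 and Blvrb lay between 0.22 and 0.25, and Cbr3, Hmox1, Txnrd1, Gsr and Srxn1 between -0.07 and 0.09. limma called 0 of the 18 member probe sets and 0% of all, and at an unadjusted p under 0.05 it found 0 of the 18 higher, against 2.59% of all probe sets (701 higher and 399 lower). Of the 701 and 399, 63.7% were higher, and 47.5% and 57.2% after the median shift and quantile normalization.

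The comparison of 1% with 0.05% quercetin shares its groups with the other comparisons. limma called 0 of the 18 member probe sets, against 0.0074% of all (probe sets of Nav2 and Bcl6, both lower at 1% and named after their values were seen), and 1 of the 18 was higher at an unadjusted p under 0.05, against 1.61%. That gene was Osgin1, at 0.76 ± 0.26 (limma, adjusted p = 0.508), with 5 of 6 mice at 1% above the mean at 0.05%, or 0.56 ± 0.24 without replicate 1. The median of the 10 genes was 0.32, against -0.06 over all, and 0.08 without replicate 1. Of the unadjusted calls over all probe sets 22.9% were higher, and 54% and 48.1% after the 2 scalings. Without replicate 1 limma called 0 of the 18 and 0% of all, with 1 of the 18 higher at an unadjusted p under 0.05 against 1.68%.

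Ordered by diet over all arrays, the means of Osgin1 ran control, 0.05%, 1%, and neighbours in that order overlapped. For Gclc 1424296_at, Gclm 1418627_at and Nqo1 the 0.05% mean was the highest of the 3, with 1% against 0.05% at -0.13 ± 0.33, -0.03 ± 0.18 and -0.19 ± 0.19, all with 95% intervals that include 0. The other probe sets of Gclc and Gclm had their highest mean at 1%, by 0.03 ± 0.33 for Gclc 1455959_s_at and 0.10 ± 0.16 for Gclm 1439050_at, and Gclm 1418627_at gave 0.04 after a median shift, so the order of these diets for Gclc and Gclm differed between probe sets. Blvrb had its highest mean at 1%, 0.09 ± 0.15 above that at 0.05%. For Srxn1, Hmox1, Cbr3, Txnrd1 and Gsr, each by its probe set with the highest mean, the 1% mean was the highest and the others differed by 0.09 or less, with 0 calls by limma in any of these. Without replicate 1 that Srxn1 probe set gave -0.03 ± 0.14 for 1% against control. For Gsr 1421816_at the control mean was the highest. For 0.05% against control Txnrd1 1424487_x_at gave 0.26 ± 0.18 and Srxn1 1419942_at 0.19 ± 0.22.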

How the data were processed

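Probe set values were analysed as the authors deposited them, as linear intensity from 1 Affymetrix array per liver sample (0.0118 to 18108 over 18 arrays), made from biotin-labelled RNA with a 3-prime kit per the labels' protocols. For the signal software and the scaling between arrays, nothing is given in the sources used here. Of 45037 non-control probe sets, 34945 had 1 gene symbol, 932 several and 9160 none (64 controls were left out), and all 10 members matched RefSeq by Entrez number.

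log2(intensity + 16) was taken, and probe sets with a mean above the 40th percentile (log2 4.69) were kept, 27022 in all. limma 3.58.1 under R 4.3.3 (lmFit, eBayes) was fitted to 3 group means with 15 residual degrees of freedom, with Benjamini-Hochberg adjustment over all tested probe sets, two-sided. The median SE for 1% against control was 0.16, and the number of arrays limits this precision. Where 1 value stands for a gene, it is that of the highest-mean probe set bearing only that symbol. In a test on simulated data for 1% against control with 27022 probe sets, 90% of 100 log2 changes of 1 and 100% of 100 changes of 2 were recovered, beside 7 false calls. The simulated noise was normal and independent between probe sets. The planted changes entered the same adjustment, which they can loosen. These shares therefore check the fit and do not give the chance that a real change of that size would be called here.

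The members, the gene lists (regulators, other targets, partner genes, 8 sets of cell type markers, acute phase, integrated stress response and heat shock genes) and the choice of replicate 1 at 1% were made with earlier results of these data known. Named genes were all member probe sets, up to 4 genes per pathway list and comparison by smallest p, the 8 nearest patterns and the 8 largest gaps, and others are marked. The variant element TGAGNNNGC was added to the motif search after its first results were seen. Alternatives were other scalings, an added value of 1, other filters, 1 probe set per gene, eBayes settings, array weights, 12 arrays, the replicate number as a block, and leaving out each array.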

Additional observations from a re-analysis of the deposited data

Results flagged for a closer look

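Within a diet, a mouse was singled out where its gap to the nearest of the other 5 over the range of the 6 exceeded the 95% critical value of Dixon's test, which chance alone exceeds in about 1 group in 20. Over all 27022 probe sets this held for 5.67% in controls, 4.13% at 0.05% quercetin and 6.24% at 1%. Among the 18 member probe sets it held for 2 in controls, 2 at 0.05% and 6 at 1%.

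Of the 6 at 1%, 5 were high values of replicate 1. That array was picked with earlier results of these genes known, so this count describes it and carries no test. Several of the 5 are probe sets of 1 gene, Srxn1. Srxn1 1426875_s_at read 12.44 there (log2, next highest 8.172), Srxn1 1451680_at 10.77 (6.969), Srxn1 1425351_at 9.765 (6.218), Hmox1 10.69 (7.558) and Cbr3 8.035 (6.04). Over all probe sets 129 were singled out as high on this array. The 1 further value at 1% was Nqo1 in replicate 4, at 6.49 (next 6.076).

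In the other diets the distances were small. Srxn1 1426875_s_at was high in control replicate 6, at 8.292 (next 7.934), and in 0.05% replicate 5, at 8.138 (next 7.806). Gclm 1418627_at was low in control replicate 2, at 10.92 (next 11.37), and Cbr3 was low in 0.05% replicate 2, at 5.123 (next 5.563).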

How the results depend on the processing

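The median log2 change of the 10 genes stayed above 0 under the alternatives run but moved by up to several-fold: leaving out 1 array gave 0.12 to 0.49 for 1% against control, 0.087 to 0.24 for 0.05% against control and 0.079 to 0.40 for 1% against 0.05%. The lowest in the first and last came without 1% replicate 1, where a median shift, added after seeing the data, gave 0.13 and 0.11. Array weights gave 0.23, 0.23 and 0.13 for the 3 comparisons.

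Calls among all probe sets were few and unstable. For 1% against control 1 call became 2 with a median shift, quantile normalization or array weights, 3 with the replicate block, and 0 with 1 added before log2, no filter, the 60th percentile, 1 probe set per gene or only 12 arrays; leaving out 1 array gave 0 to 4 (0 without control 2, 5 or 6 or 1% replicate 1, 2, 3 or 5, 2 without 0.05% replicate 4 or 1% replicate 6, 4 without control 3). For 0.05% against control 0 became 1 with a median shift, quantile normalization, no filter or array weights, and 0 to 1 with 1 array left out (1 without 0.05% replicate 1 or 4). For 1% against 0.05% 2 became 4 with a median shift, 1 with 1 added before log2 or no filter, 0 with the 60th percentile, 1 probe set per gene or the replicate block, 37 with array weights and 15 with only 12 arrays; leaving out 1 array gave 0 to 3 (0 without control 2 or 4, 0.05% replicate 4, 5 or 6 or 1% replicate 1, 2, 3, 4 or 6, 1 without control 5 or 6 or 0.05% replicate 2, 3 without control 3 or 1% replicate 5). The cause was not tested.

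Member probe sets were uncalled in every setting but 1: with the replicate number as a block, Osgin1 passed for 1% against control (1.16, limma adjusted p = 0.0130). Without the block the adjusted p was 0.412, and 0.122 to 0.771 with 1 array left out. The numbers did not pair the mice: the 18 same-number pairs of arrays had correlations of -0.41 to 0.27, 3 of them over 0.1, and 3 of 18 arrays correlated best with their own number.

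Of 54 member results 21 changed sign in at least 1 setting, and none of these was called. A median shift gave 0.018 and quantile normalization 0.026 for Gsr 1421816_at, 1% against control, and the shift gave 0.042 for Gclm 1418627_at, 1% against 0.05%. Array weights gave -0.0086 for Nqo1 and -0.028 for Txnrd1 1424486_a_at, 1% against control; 0.019 for Gsr 1421816_at, 0.0040 for Gsr 1421817_at, 0.0079 for Srxn1 1425351_at and 0.0076 for Srxn1 1426875_s_at, 0.05% against control; and -0.045 for Gsr 1421816_at, -0.021 for Txnrd1 1424486_a_at, -0.0055 for Gclm 1439050_at, -0.066 for Blvrb and -0.28 for Gclc 1455959_s_at, 1% against 0.05%. The median shift without 1% replicate 1 gave -0.12 for Txnrd1 1424486_a_at, -0.020 for Srxn1 1426875_s_at and -0.10 for Srxn1 1451680_at, 1% against control.

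Leaving out each array in turn gave these ranges. For 1% quercetin against control it changed sign in Nqo1 1423627_at (-0.054 to 0.13), Gsr 1421816_at (-0.083 to 0.055), Txnrd1 1424486_a_at (-0.13 to 0.13), Srxn1 1426875_s_at (-0.028 to 0.94) and Srxn1 1451680_at (-0.11 to 0.80). For 0.05% quercetin against control it changed sign in Cbr3 1427912_at (-0.015 to 0.17), Srxn1 1425351_at (-0.076 to 0.055), Txnrd1 1421529_a_at (-0.13 to 0.044), Gsr 1421817_at (-0.12 to 0.0026), Hmox1 1448239_at (-0.10 to 0.061), Srxn1 1426875_s_at (-0.13 to 0.011) and Txnrd1 1424486_a_at (-0.12 to 0.055). For 1% against 0.05% quercetin it changed sign in Gclm 1418627_at (-0.14 to 0.078), Gsr 1421816_at (-0.0066 to 0.14), Txnrd1 1424486_a_at (-0.084 to 0.17), Gclm 1439050_at (-0.0059 to 0.20), Blvrb 1451386_at (-0.0037 to 0.14), Gclc 1455959_s_at (-0.27 to 0.22), Srxn1 1451680_at (-0.025 to 0.88) and Gclc 1424296_at (-0.43 to 0.11).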
